A study of Mus musculus with 8 samples.

Results

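Bone morphogenetic protein (BMP) signalling was followed through 8 genes in mouse testes with and without conditional deletion of Dmrt1. The genes are the ligands Bmp4 and Bmp7, the type I receptor Bmpr1b, the target genes Id1, Id2 and Id3, and the inhibitory Smads Smad6 and Smad7. They were chosen by symbol, and every probe set with 1 of these symbols was taken. That gave 15 of the 45101 probe sets on the array and 8 of the 18194 genes it names.

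The study asked what loss of Dmrt1, a transcription factor of Sertoli and germ cells, does to the postnatal testis when Sertoli cells lose it. All 8 samples are total RNA of testes from males at postnatal day 28, all Dmrt1 flox/flox on a strain background given as mixed (C57BL6/6J and 129), each on its own array. Sf1-Cre testes (n = 4) and Dhh-Cre testes (n = 2) also carry Cre under the Sf1 or the Dhh promoter, both called Sertoli cell-specific by the submitters, and control testes (n = 2) carry no Cre. The labels call the arrays of a group biological replicates, and do not say how many animals went into a sample. As background, Sf1 is also transcribed in Leydig cells, and Dmrt1 is also transcribed in spermatogonia, which neither Cre line is designed to recombine.

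BMP ligands are secreted dimers that bring together type I and type II serine-threonine kinase receptors on the cell surface. The type I receptor then phosphorylates Smad1, Smad5 or Smad9, which join Smad4, enter the nucleus and raise transcription of target genes, the Id genes among the most direct. Id proteins lack a DNA-binding region and hold back basic helix-loop-helix (bHLH) transcription factors by pairing with them. Smad6 and Smad7 close the loop: they are induced by the pathway and block the receptors, Smad6 mainly those of BMPs and Smad7 also those of TGF-beta. In the testis, BMPs act on germ cells and on the somatic cells around them, and in the ovary on granulosa cells.

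The stretch from 250 bases before to 50 bases after the start of the gene is shown for 3 members, Id3 and Id2 as Id genes that rose in both Cre lines and Smad6 as the member that fell furthest. The sequences are from RefSeq on build GRCm38.p6, at chr4:136143572-136143871 on the plus strand for Id3, chr12:25096043-25096342 on the minus strand for Id2 and chr9:64022010-64022309 on the minus strand for Smad6. Capitals mark matches, on either strand, to GGCGCC, a GC-rich element known to bind BMP-activated Smads, or to GTCTG, the Smad box. The other motifs searched, CAGGTG and TATAAA, had no match in these 3, and the searched motifs did not overlap one another here.
Id3: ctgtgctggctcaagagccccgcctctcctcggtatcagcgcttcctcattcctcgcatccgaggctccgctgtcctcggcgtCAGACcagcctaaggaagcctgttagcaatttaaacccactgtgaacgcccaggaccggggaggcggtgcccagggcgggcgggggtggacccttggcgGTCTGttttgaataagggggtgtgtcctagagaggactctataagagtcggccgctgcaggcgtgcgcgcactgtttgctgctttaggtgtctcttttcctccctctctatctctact
Id2: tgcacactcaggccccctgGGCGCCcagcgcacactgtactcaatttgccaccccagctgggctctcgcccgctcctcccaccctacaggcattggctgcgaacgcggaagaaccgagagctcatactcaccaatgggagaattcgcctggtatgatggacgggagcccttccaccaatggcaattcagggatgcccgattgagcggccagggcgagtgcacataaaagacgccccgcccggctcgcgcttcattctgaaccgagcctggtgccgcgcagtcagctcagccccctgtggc
Smad6: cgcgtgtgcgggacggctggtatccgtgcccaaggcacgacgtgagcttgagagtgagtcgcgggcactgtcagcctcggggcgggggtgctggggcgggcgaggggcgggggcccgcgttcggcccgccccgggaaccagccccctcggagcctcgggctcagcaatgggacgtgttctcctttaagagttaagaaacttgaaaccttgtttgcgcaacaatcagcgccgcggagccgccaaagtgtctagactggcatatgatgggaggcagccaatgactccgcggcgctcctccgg

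GGCGCC had 1 match in Id2, with its first base at -231 from the start. GTCTG had 2 matches in Id3, at -167 and -68, the earlier of them on the opposite strand as CAGAC. None of the 4 motifs was found in the Smad6 window. The search took only exact matches, so it does not show that the window lacks other Smad-binding sequences. The Smad6 window holds gtctagac, which shares its opening bases with GTCTG and was not among the motifs searched. Of 32851 mouse promoters of the same length in the RefSeq table, 11.9% held GGCGCC, 49.6% GTCTG, 20.2% CAGGTG and 13.6% TATAAA, so the Smad box match is found in a large share of promoters. Among the other members, the Bmp4 window held CAGGTG at -177, and Bmpr1b was listed with 3 start sites. Id1, Bmp7 and Smad7 are named only.

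Levels below are log2 of the deposited intensity, where log2 4 serves as the floor under which a level has no order. A change passed when its Benjamini-Hochberg adjusted p from limma was under 0.05, over all 25791 probe sets with at least 2 arrays at the floor or above. Of the 15 probe sets 10 were tested, and each of the 8 genes is described by its probe set with the highest mean. Bmp4, Bmpr1b, Id1 and Id3 were under the floor in both controls and so were tested because of the arrays carrying Cre, and Smad6 because of the controls, so their counts are given as description. The array medians lay between an intensity of 15.2 and 15.9 in Sf1-Cre, at 15.3 and 15.5 in arrays labelled Dhh-Cre, and at 14.1 and 13.7 in control.

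Dmrt1 itself measured 7.10, 7.89, 7.63 and 7.53 in Sf1-Cre, 10.43 and 9.94 in arrays labelled Dhh-Cre, and 8.50 and 8.76 in control. It was lower than control in Sf1-Cre (log2 difference -1.09 ± 0.25 SE, adjusted p = 0.003688 by limma) and higher in arrays labelled Dhh-Cre (1.55 ± 0.28 SE, adjusted p = 0.001173 by limma). The second result is not what a deletion alone would give, so these arrays are named by their label, on which every direction given for them depends. Over the probe sets tested, their log2 values correlated at 0.902 to 0.955 with Sf1-Cre and at 0.585 to 0.649 with control. Intensity sums of 6 spermatogonia markers were 2331 to 2509 in Sf1-Cre, 2806 and 3637 in arrays labelled Dhh-Cre, and 1026 and 1223 in control. Of these markers Gfra1 was lower than control in both Cre lines and Sall4 in Sf1-Cre only. Zbtb16, Stra8 and Foxo1 were higher in both lines and Kit in Sf1-Cre only. The part of these markers in the Dmrt1 result was not tested. A single probe set covers Dmrt1, and its place relative to the deleted part is not stated in the labels.

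Marker lists of testis cell types differed widely between the groups, and a whole-testis array cannot tell fewer cells of a type from less RNA per cell. The summed intensity of 11 spermatid markers was 840 to 4271 in Sf1-Cre, 1258 and 12115 in arrays labelled Dhh-Cre, and 58747.5 and 63848 in control. Sums of 9 macrophage markers were 21351 to 24305 in Sf1-Cre, 14192 and 15164 in arrays labelled Dhh-Cre, and 1672 and 1782 in control. Sums of 7 fibroblast markers were 11751 to 13108 in Sf1-Cre, 11954 and 14773 in arrays labelled Dhh-Cre, and 1474 and 1572 in control. The sums of these lists did not overlap between either Cre line and control, and the part of such differences in the results below was not tested. Of 14 Sertoli markers, 12 had a mean at the floor or above in Sf1-Cre, 13 in arrays labelled Dhh-Cre and 11 in control, with Amh under it in all 3 groups. Their sums were 22465 to 24575 in Sf1-Cre, 35251 and 37457 in arrays labelled Dhh-Cre, and 18883 and 19679 in control. In Sf1-Cre 9 of them were higher than control, and Rhox5, Cst9 and Tsx were lower. Spink8, an epididymal gene, reached 12.05 and 10.49 in Sf1-Cre replicates 1 and 3 and 11.55 in replicate 1 labelled Dhh-Cre, against 3.11 to 6.87 in the other 5 arrays.

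**Figure D1:**
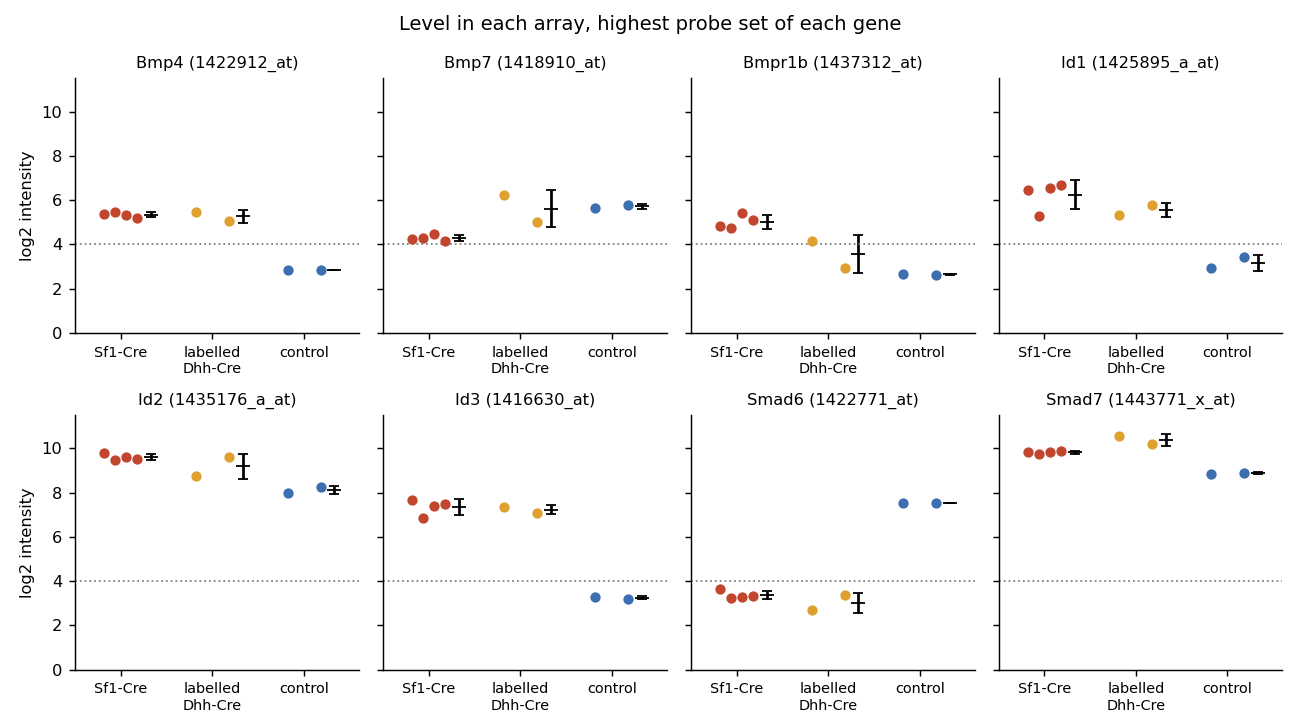
Log2 intensity of the 8 genes (highest probe set) in each array, with 1 panel per gene, the Sf1-Cre, labelled Dhh-Cre and control arrays from left to right, a tick with error bars at each group mean and SD and a dotted line at the floor of log2 4. Id3 lies at 6.86 or above in every array carrying Cre and at 3.29 or below in both controls, and Smad6 shows the opposite order.

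Bmp4 was higher than control in both Cre lines. It encodes a secreted ligand of the pathway, and its only probe set, 1422912_at, measured 5.38, 5.45, 5.35 and 5.20 in Sf1-Cre, 5.46 and 5.07 in arrays labelled Dhh-Cre, and 2.84 and 2.86 in control. The 6 arrays carrying Cre lay close together and well above both controls, which were under the floor. Against control, the log2 difference was 2.49 ± 0.16 SE in Sf1-Cre (adjusted p = 3.85e-06 by limma), at least 2.54-fold, and 2.41 ± 0.19 SE in arrays labelled Dhh-Cre (adjusted p = 1.23e-05 by limma), at least 2.40-fold.

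Bmp7, the other ligand, was lower in Sf1-Cre than in control. Probe set 1418910_at measured 4.27, 4.31, 4.46 and 4.16 in Sf1-Cre, 6.21 and 5.03 in arrays labelled Dhh-Cre, and 5.65 and 5.80 in control. The 4 Sf1-Cre arrays were the lowest of the 8 and overlapped neither other group, while the 2 arrays labelled Dhh-Cre stood on either side of the controls. The log2 difference against control was -1.43 ± 0.30 SE in Sf1-Cre (adjusted p = 0.00234 by limma), 2.69-fold lower, and -0.10 ± 0.34 SE in arrays labelled Dhh-Cre (adjusted p = 0.790 by limma). Without replicate 1 labelled Dhh-Cre, one of the arrays with high Spink8, the second difference was -0.70 (adjusted p = 0.0242 by limma), and without replicate 2 it was 0.49 (adjusted p = 0.0800 by limma). Over the 22 alternatives that tested it, the difference in arrays labelled Dhh-Cre ranged from -2.35 to 0.49. It passed as lower in 6 of them, with centrings described below among these. The probe sets 1435479_at and 1432410_a_at for Bmp7 were under the floor in every array.

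Bmpr1b, a type I receptor known from ovarian granulosa cells, rose in Sf1-Cre. Probe set 1437312_at measured 4.84, 4.74, 5.43 and 5.09 in Sf1-Cre, 4.16 and 2.96 in arrays labelled Dhh-Cre, and 2.66 and 2.63 in control. All 4 Sf1-Cre arrays were above the floor, 1 of the 2 arrays labelled Dhh-Cre was, and neither control was. Sf1-Cre overlapped neither other group, and replicate 2 labelled Dhh-Cre and both controls, all under the floor, have no order among them. In Sf1-Cre the difference against control was 2.38 ± 0.33 SE on the log2 scale (adjusted p = 0.000259 by limma), at least 2.04-fold. In arrays labelled Dhh-Cre it was 0.91 ± 0.38 SE (adjusted p = 0.0571 by limma), with both means under the floor; without replicate 2 it was 1.52 (adjusted p = 0.00386 by limma), and without replicate 1 it was 0.31 (adjusted p = 0.399 by limma). The sum of 10 granulosa markers, 9961 to 14250 in Sf1-Cre, 6361 and 7424 in arrays labelled Dhh-Cre, and 1050 and 1089 in control, had the same group order, and its part in the Bmpr1b result was not tested. Of those granulosa markers 9 had a mean at the floor or above in Sf1-Cre, 9 in arrays labelled Dhh-Cre and 2 in control, with Esr2 under it in all 3 groups. The probe sets 1422872_at and 1443720_s_at for Bmpr1b were under the floor in every array.

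Id1, Id2 and Id3 rose together in both Cre lines, although Id2 changed sign under 3 of the 4 centrings described below. Id3 probe set 1416630_at measured 7.66, 6.86, 7.40 and 7.48 in Sf1-Cre, 7.37 and 7.08 in arrays labelled Dhh-Cre, and 3.29 and 3.22 in control. The 2 Cre lines overlapped each other and lay far above the controls, both of which were under the floor. Id3 was at least 10.2-fold higher in Sf1-Cre (log2 difference 4.10 ± 0.23 SE, adjusted p = 2.01e-06 by limma) and at least 9.33-fold higher in arrays labelled Dhh-Cre (3.97 ± 0.27 SE, adjusted p = 6.91e-06 by limma). Id3 kept its direction and passed in both comparisons under all 24 alternative settings of the analysis. As background, Id1 and Id3 are expressed in endothelium, and the summed intensity of 10 endothelial markers was 948 to 1619 in Sf1-Cre, 1532 and 1830.5 in arrays labelled Dhh-Cre, and 362.5 and 398 in control. Of these markers 8 had a mean at the floor or above in Sf1-Cre, 8 in arrays labelled Dhh-Cre and 3 in control, with Pecam1 and Cdh5 under it in all 3 groups, and their part in the Id results was not tested.

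Id1 was also higher in both Cre lines. Its only probe set, 1425895_a_at, measured 6.46, 5.29, 6.56 and 6.70 in Sf1-Cre, 5.33 and 5.79 in arrays labelled Dhh-Cre, and 2.93 and 3.43 in control. Sf1-Cre replicate 2 stood apart from the other 3 of its group and was the lowest of the arrays carrying Cre, and all 6 arrays carrying Cre were above both controls. Id1 was at least 4.77-fold higher in Sf1-Cre (log2 difference 3.07 ± 0.39 SE, adjusted p = 0.000156 by limma) and at least 2.95-fold higher in arrays labelled Dhh-Cre (2.38 ± 0.45 SE, adjusted p = 0.00149 by limma).

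Id2 was the Id gene of the 3 with controls above the floor. Probe set 1435176_a_at measured 9.78, 9.47, 9.59 and 9.54 in Sf1-Cre, 8.77 and 9.59 in arrays labelled Dhh-Cre, and 7.98 and 8.24 in control. Every array carrying Cre exceeded both controls, and replicate 1 labelled Dhh-Cre was the nearest to them. Id2 was 2.79-fold higher in Sf1-Cre (log2 difference 1.48 ± 0.24 SE, adjusted p = 0.000545 by limma) and 2.10-fold higher in arrays labelled Dhh-Cre (1.07 ± 0.27 SE, adjusted p = 0.00677 by limma). Its other tested probe set, 1422537_a_at, measured 4.44, 3.94, 4.11 and 3.76 in Sf1-Cre, 3.13 and 4.11 in arrays labelled Dhh-Cre, and 3.09 and 3.14 in control. Near the floor it passed in Sf1-Cre (log2 difference 0.94, adjusted p = 0.0165 by limma) and missed the threshold in arrays labelled Dhh-Cre (0.51, adjusted p = 0.196 by limma). A further probe set, 1453596_at, was under the floor in every array.

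The inhibitory Smads moved in opposite directions under the deposited scaling, although Smad7 changed sign under 3 of the 4 centrings described below. Smad6, the inhibitor with the stronger preference for BMP receptors, was measured by probe set 1422771_at at 3.67, 3.26, 3.29 and 3.32 in Sf1-Cre, 2.71 and 3.35 in arrays labelled Dhh-Cre, and 7.54 and 7.52 in control. Every array carrying Cre was under the floor and both controls were far above it. Smad6 was at least 11.6-fold lower in Sf1-Cre (log2 difference -4.15 ± 0.21 SE, adjusted p = 1.31e-06 by limma) and at least 11.6-fold lower in arrays labelled Dhh-Cre (-4.50 ± 0.25 SE, adjusted p = 3.09e-06 by limma). Under all 24 alternative settings Smad6 stayed lower and passed in both comparisons. The spermatid marker sums given above were lower in the same arrays, and their part in the Smad6 result was not tested.

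Smad7, which also blocks TGF-beta receptors, was modestly higher in both Cre lines. Probe set 1443771_x_at, of a class that may cross-hybridise with other transcripts, measured 9.86, 9.73, 9.83 and 9.87 in Sf1-Cre, 10.57 and 10.18 in arrays labelled Dhh-Cre, and 8.85 and 8.90 in control. The 3 groups did not overlap, with the arrays labelled Dhh-Cre highest and the controls lowest. The log2 difference against control was 0.95 ± 0.15 SE in Sf1-Cre (adjusted p = 0.000614 by limma), 1.93-fold, and 1.50 ± 0.18 SE in arrays labelled Dhh-Cre (adjusted p = 0.000105 by limma), 2.83-fold. Probe set 1423389_at measured 3.67, 3.58, 4.27 and 3.80 in Sf1-Cre, 4.58 and 4.11 in arrays labelled Dhh-Cre, and 2.83 and 3.00 in control. It gave similar differences of 0.92 in Sf1-Cre (adjusted p = 0.00673 by limma) and 1.43 in arrays labelled Dhh-Cre (adjusted p = 0.00136 by limma). Both controls and the Sf1-Cre mean were under the floor, and both arrays labelled Dhh-Cre were above it.

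**Figure D2:**
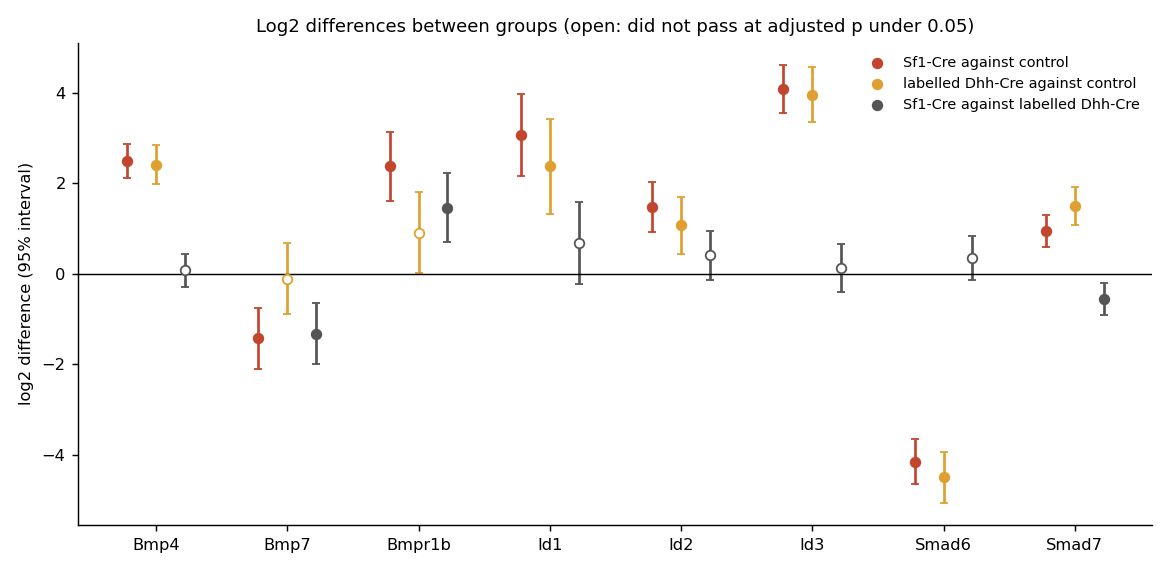
Log2 difference of each gene (highest probe set) with its 95% confidence interval from limma, in Sf1-Cre against control, arrays labelled Dhh-Cre against control and Sf1-Cre against arrays labelled Dhh-Cre. Id3 and Smad6 lie furthest from 0 against control, in opposite directions, and Bmp7, Bmpr1b and Smad7 are the genes that passed between the Cre lines.

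In Sf1-Cre, 6 of the 8 genes rose and 2 fell, where 79.4% of all 13802 genes tested passed, 46.3% higher and 33.1% lower. In arrays labelled Dhh-Cre, 5 rose, 1 fell and 2 did not pass, where 79.3% of all genes passed, 48.9% higher and 30.4% lower. With so large a share of genes called, passing by itself sets no member apart. Without the 3 arrays with high Spink8, 6 genes rose and 2 fell in Sf1-Cre, and 5 rose and 2 fell in arrays labelled Dhh-Cre. The median log2 difference of the 8 genes was 1.93 in Sf1-Cre and 1.29 in arrays labelled Dhh-Cre, beside 0.34 and 0.54 over all genes tested. With values under log2 4 set to 4, the medians of the 8 were 1.18 and 1.17. Both comparisons use the same 2 controls.

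The direction of Id2 and Smad7, and of the uncalled Bmpr1b difference in arrays labelled Dhh-Cre, depended on how the arrays were centred, while that of Id3, Smad6, Bmp4 and Id1, and of Bmp7 and Bmpr1b in Sf1-Cre, did not. The settings behind the deposited scaling are not stated, and the array medians given above differed between the groups. Quantile normalization moved the median of all probe sets from 0.36 to 0.27 in Sf1-Cre and from 0.57 to 0.50 in arrays labelled Dhh-Cre. Centring on housekeeping genes, on peritubular and endothelial genes, or on the changes of either list shifted the median of all probe sets in Sf1-Cre to between -1.88 and -0.51, against 0.36 as deposited. The same settings gave -1.67 to -0.29 in arrays labelled Dhh-Cre, against 0.57 as deposited. Of the probe sets that passed, 59.2% were higher in Sf1-Cre as deposited, and 16.0%, 33.9%, 8.81% and 17.9% after housekeeping centring, housekeeping centring on changes, peritubular and endothelial centring, and the same on changes. In arrays labelled Dhh-Cre these shares were 63.1% as deposited and 17.1%, 39.4%, 7.70% and 10.8%.

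After these centrings Id3 was higher by 1.86 to 3.23 in Sf1-Cre and by 1.72 to 3.10 in arrays labelled Dhh-Cre on the log2 scale, passing in each. Id1 and Bmp4 stayed higher in each, but passed in 3 of the 4 centrings in Sf1-Cre and in fewer in arrays labelled Dhh-Cre. Bmpr1b stayed higher in Sf1-Cre, at 0.14 or above, but lost its call in 2 of the 22 alternatives that tested it. Id2 ranged from -0.76 to 0.62 in Sf1-Cre and from -1.17 to 0.21 in arrays labelled Dhh-Cre, and Smad7 from -1.29 to 0.08 in Sf1-Cre and from -0.74 to 0.64 in arrays labelled Dhh-Cre. Id2 and Smad7 each passed as lower in at least 1 Cre line under 2 of the 4 centrings, so their rise is relative to the deposited scaling. The centring on the list levels moved the differences against control by more than the housekeeping list's own median change. That change was 0.78 in Sf1-Cre and 0.76 in arrays labelled Dhh-Cre. The centring on changes was added after the data were seen for that reason.

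**Figure D3:**
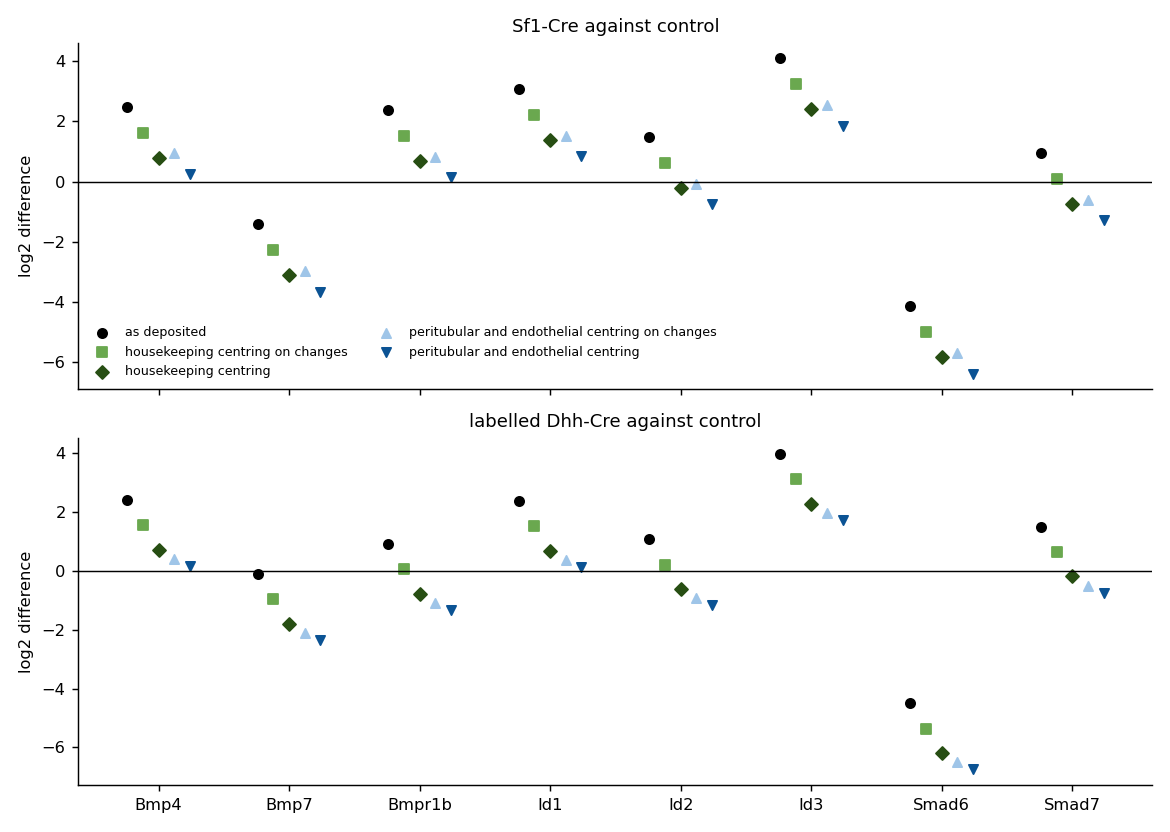
Log2 difference of the 8 genes against control under the deposited scaling and under each of the centrings, in Sf1-Cre and in arrays labelled Dhh-Cre. Id3 stays above 0 and Smad6 below 0 throughout, and Id2 and Smad7 cross 0, as does Bmpr1b in arrays labelled Dhh-Cre.

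Sf1-Cre was then set against arrays labelled Dhh-Cre, the direct test of a difference between the Cre lines. Of the 8 genes 1 was higher, 2 were lower and 5 did not pass, where 23.4% of all genes passed, 12.4% higher and 11.1% lower. Bmpr1b was at least 1.92-fold higher in Sf1-Cre (log2 difference 1.47, 95% interval 0.70 to 2.23, adjusted p = 0.0188 by limma). Bmp7 was 2.50-fold lower (log2 difference -1.32, 95% interval -2.00 to -0.64, adjusted p = 0.0176 by limma). Smad7 was 1.47-fold lower (log2 difference -0.55, 95% interval -0.91 to -0.20, adjusted p = 0.0386 by limma).

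Each of these 3 differences rested on few arrays. That of Bmp7 was -0.73 without replicate 1 labelled Dhh-Cre (adjusted p = 0.0784 by limma) and -0.79 without the 3 arrays with high Spink8 (adjusted p = 0.147 by limma). That of Bmpr1b was 0.86 without replicate 2 labelled Dhh-Cre (adjusted p = 0.0935 by limma) and 1.96 without the arrays with high Spink8 (adjusted p = 0.0234 by limma). The call of Smad7 was lost in 16 of 24 alternatives, among them leaving out either control, which do not enter the difference but do enter the shared estimate of spread.

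The remaining 5 genes did not pass between the Cre lines, which does not show that they were equal. The 95% intervals of Sf1-Cre minus arrays labelled Dhh-Cre were -0.29 to 0.45 for Bmp4, -0.22 to 1.60 for Id1, -0.13 to 0.95 for Id2 and -0.40 to 0.66 for Id3 on the log2 scale. Smad6 was under the floor in all 6 arrays and allows no comparison of levels. Without Sf1-Cre replicate 2, the array that stood apart, the Id1 difference was 1.01 (adjusted p = 0.0293 by limma).

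The rest of the pathway was followed in 6 lists of other genes, counted under the deposited scaling. A gene under the floor in both controls could be tested only through arrays carrying Cre in which it was higher, so list counts are given as description, beside 46.3% of all genes tested higher in Sf1-Cre and 48.9% in arrays labelled Dhh-Cre. Of the other BMP receptors and co-receptors, 8 of the 9 on the array were tested, and 7 rose in Sf1-Cre and 8 in arrays labelled Dhh-Cre, with none lower. Their median log2 difference was 1.93 in Sf1-Cre and 2.25 in arrays labelled Dhh-Cre, and 1.55 and 1.85 with values under log2 4 set to 4. Bmpr2, the type II receptor, was 3.98-fold higher in Sf1-Cre and 3.57-fold higher in arrays labelled Dhh-Cre (log2 differences 1.99 ± 0.14 SE and 1.84 ± 0.16 SE). Bmpr1a, another type I receptor, was 5.21-fold higher in Sf1-Cre and 4.52-fold higher in arrays labelled Dhh-Cre. Acvr1, also a type I receptor, was at least 2.26-fold higher in Sf1-Cre and at least 1.32-fold higher in arrays labelled Dhh-Cre. Acvr2b, a type II receptor shared with activin, did not pass in Sf1-Cre (log2 difference 0.17, adjusted p = 0.509 by limma), and the difference between the Cre lines passed for it (-0.96) and for the co-receptor Rgmb (-1.36). After peritubular and endothelial centring, which uses Eng of this list, the receptor counts were 2 higher and 2 lower in Sf1-Cre and 1 higher and 2 lower in arrays labelled Dhh-Cre.

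Of the 10 other ligands on the array 5 were tested. Bmp2, Bmp5 and Bmp6 rose and Bmp8a and Gdf9 fell in Sf1-Cre, and all but Bmp2 passed in the same direction in arrays labelled Dhh-Cre. Bmp8a, a ligand known from mouse male germ cells, was at least 2.37-fold lower in both Cre lines (log2 differences -3.29 ± 0.15 SE in Sf1-Cre and -2.89 ± 0.18 SE in arrays labelled Dhh-Cre). Gdf9, known as an oocyte factor and also present in male germ cells, was 3.57-fold lower in Sf1-Cre and at least 3.91-fold lower in arrays labelled Dhh-Cre. Bmp2 was 2.82 higher on the log2 scale in Sf1-Cre, at least 1.54-fold, and 1.32 higher in arrays labelled Dhh-Cre (adjusted p = 0.0697 by limma). Bmp8a and Gdf9 stayed lower under every centring, whereas Bmp6, with log2 differences of 1.00 and 1.02, changed sign under 3 of the 4 in both lines. Between the Cre lines Gdf9 was higher in Sf1-Cre by 0.73 (adjusted p = 0.0152 by limma).

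Among the other Smads and the Smurf ubiquitin ligases, 7 of 8 were tested. Smad3, a transducer of TGF-beta and activin signals, was 12.7-fold higher in Sf1-Cre and 15.0-fold higher in arrays labelled Dhh-Cre (log2 differences 3.66 ± 0.28 SE and 3.91 ± 0.33 SE), and stayed higher and passed under every centring. Smad2 and Smad4, the partner shared by both branches, rose by 0.65 and 0.98 in Sf1-Cre and by 0.94 and 1.17 in arrays labelled Dhh-Cre, and each changed sign under at least 3 of the 4 centrings in both lines. Smad1, which carries BMP signals, fell by 0.49 in Sf1-Cre (adjusted p = 0.0299 by limma) and measured -0.45 in arrays labelled Dhh-Cre (adjusted p = 0.0679 by limma). Smurf1 fell by 0.49 in Sf1-Cre (adjusted p = 0.0163 by limma) and measured -0.17 in arrays labelled Dhh-Cre (adjusted p = 0.374 by limma). The list's medians were 0.26 and 0.30, near those over all genes.

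Among 14 BMP antagonists on the array 10 were tested, and 7 rose and 1 fell in Sf1-Cre, while 8 rose and 1 fell in arrays labelled Dhh-Cre. Their median log2 difference was 1.72 in Sf1-Cre and 2.68 in arrays labelled Dhh-Cre, and 1.72 and 2.21 with values under log2 4 set to 4. Fst, which binds activin and BMPs and is also in the granulosa list, was at least 14.6-fold higher in Sf1-Cre and at least 6.05-fold higher in arrays labelled Dhh-Cre (log2 differences 4.30 ± 0.31 SE and 3.03 ± 0.36 SE). Between the Cre lines Fst was higher in Sf1-Cre by 1.27 (adjusted p = 0.0238 by limma), and Fstl1, a secreted glycoprotein related to Fst, was lower (log2 difference -1.17, adjusted p = 0.00538 by limma). Twsg1, a secreted modulator of BMP binding, was 9.57-fold higher in Sf1-Cre and 6.69-fold higher in arrays labelled Dhh-Cre. Nbl1, a secreted BMP-binding protein, was at least 4.46-fold higher in Sf1-Cre and at least 5.33-fold higher in arrays labelled Dhh-Cre. Sostdc1, a secreted antagonist of BMP and Wnt, was at least 2.16-fold lower in both Cre lines. After peritubular and endothelial centring 4 antagonists were higher and 5 lower in Sf1-Cre, and 1 was higher and 4 lower in arrays labelled Dhh-Cre. These stand beside the counts over all probe sets given with the receptors for this centring. Nbl1 rose and Sostdc1 fell under every centring in both lines, and Fst and Twsg1 rose under every centring in Sf1-Cre.

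Other BMP-responsive genes moved in both directions. Of 8 tested, 3 rose and 4 fell in Sf1-Cre, where 46.3% of all genes tested were higher and 33.1% lower. In arrays labelled Dhh-Cre 1 rose and 4 fell, where these shares were 48.9% and 30.4%. The median log2 differences were -0.86 in Sf1-Cre and -0.74 in arrays labelled Dhh-Cre. Dlx5, a homeobox gene, was at least 22.1-fold lower in both Cre lines (log2 differences -6.08 ± 0.16 SE in Sf1-Cre and -6.10 ± 0.19 SE in arrays labelled Dhh-Cre). Gata2, a zinc finger transcription factor, was 16.6-fold lower in Sf1-Cre and 19.7-fold lower in arrays labelled Dhh-Cre, and Atoh8, a bHLH gene, was 10.6-fold lower in Sf1-Cre and 25.2-fold lower in arrays labelled Dhh-Cre. Id4, the remaining Id gene and one known from spermatogonia, was 4.49-fold lower in Sf1-Cre and 2.26-fold lower in arrays labelled Dhh-Cre (log2 differences -2.17 ± 0.36 SE and -1.17 ± 0.41 SE); it is named after its values were seen. All 4 fell under every centring in both lines. Hey1, Ski and Skil rose by 0.78, 1.07 and 0.80 in Sf1-Cre, and each changed sign under at least 3 of the 4 centrings. Between the Cre lines Atoh8 was higher in Sf1-Cre by 1.24 (adjusted p = 0.00990 by limma) and Tgif1 by 0.75 (adjusted p = 0.0479 by limma).

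Of the bHLH genes whose proteins pair with Id proteins, 7 were on the array and 4 were tested, and all 4 rose in both Cre lines. Of these, Lyl1 and Tal1 had control means under the floor. The median log2 difference was 2.29 in Sf1-Cre and 2.06 in arrays labelled Dhh-Cre, and 1.82 and 1.68 with values under log2 4 set to 4. Lyl1, a factor of blood-forming cells, was at least 15.1-fold higher in Sf1-Cre and at least 8.83-fold higher in arrays labelled Dhh-Cre (log2 differences 4.96 ± 0.26 SE and 4.19 ± 0.31 SE), and passed under every centring. The macrophage marker sums given above were higher in the same arrays, and their part in the Lyl1 result was not tested. Tcf12, an E protein, was 5.26-fold higher in Sf1-Cre and 5.22-fold higher in arrays labelled Dhh-Cre, and stayed above 0 under every centring. Tal1, a partner of E proteins, was at least 2.38-fold higher in Sf1-Cre and at least 1.76-fold higher in arrays labelled Dhh-Cre, and measured -0.06 and -0.50 on the log2 scale in these groups under peritubular and endothelial centring. Under that centring 1 of the 4 was higher and 1 lower in each line, beside the counts over all probe sets given with the receptors.

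**Figure D4:**
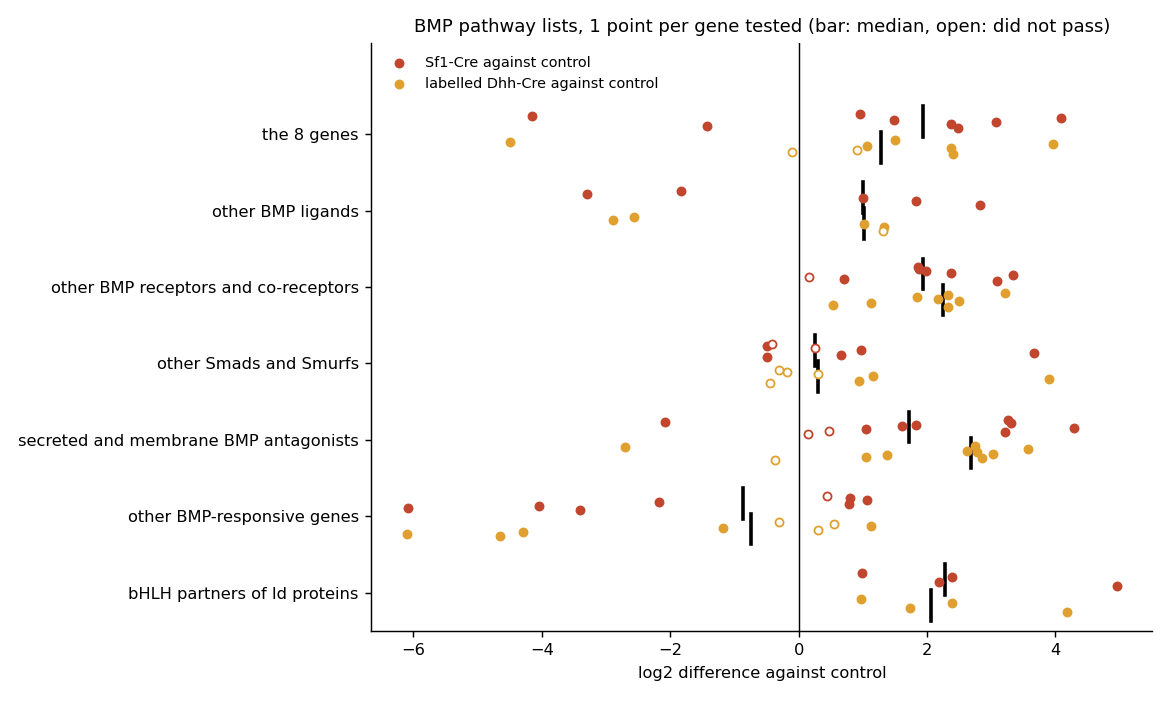
Log2 difference against control of each tested gene of the 8 genes and the 6 pathway lists, 1 point per gene, in Sf1-Cre and in arrays labelled Dhh-Cre, with filled points for genes that passed and a bar at the median. The receptors lie above 0, and the BMP-responsive genes spread from -6.10 to 1.13.

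The genes most like each member over the 8 arrays were found by the root mean square difference of log2 values after each gene was centred on its own mean. Id3 was nearest to Cyp27a1, a mitochondrial sterol hydroxylase, and Efemp1, an extracellular matrix protein, at 0.20 each. Smad6 was nearest to Atp8a2 at 0.16 and Rnf41 at 0.18. Bmp4 was nearest to Idh3g at 0.13 and Setmar at 0.14, and Bmp7 to Snai3 at 0.16 and Ndrg4 at 0.18. For Bmpr1b they were Cadps2 at 0.19 and Gpr155 at 0.24, for Id1 Fmo2 at 0.21 and Fut11 at 0.30, and for Id2 Mpc1 at 0.13 and Ireb2 at 0.16. Smad7 had the closest matches of any member, Tbk1 and Dnah11 at 0.09 each, over the same 8 arrays and so the same group differences. Values under the floor entered this measure as deposited.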

How the data were processed

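Total RNA from P28 testes was hybridised to 8 Affymetrix arrays of 45101 probe sets. The deposited intensity values were made by the authors with GCRMA, per the submitters' processing notes, with no version or settings stated there. These deposited values are linear and were turned into log2. The number of arrays per group, 4, 2 and 2, limits the precision. Gene symbols follow the platform annotation, updated through Entrez identifiers to GRCm38.p6 (34754 matched): 34958 probe sets carry 1 symbol, 932 several and 9211 none.

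Group means were fitted to all 8 arrays with limma 3.58.1, R 4.3.3 and the data.table package (version 1.17.8) for the 25791 probe sets with at least 2 arrays at log2 4, tested on simulated data first. Two-sided p-values were adjusted by Benjamini and Hochberg. Folds against a mean under log2 4 are bounds against that floor. The p-values set a group difference against the spread between these samples, estimated jointly over the groups. Python 3.11.15 with pandas 2.3.3, numpy 2.4.6, scipy 1.17.1 and matplotlib 3.10.9 made tables and figures.

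The 8 genes and all lists were chosen with earlier results of these data known. From each pathway list the text names up to 3 genes by smallest p between Sf1-Cre and control, and every gene of a count of 3 or fewer in 1 direction. Likeness names the 2 nearest genes. Alternatives covered normalization, centring, filters, moderation, array weights, samples fitted, probe set choice, a replicate block, threshold, linear means and leaving out each array; the Spink8 and on-changes settings were chosen after seeing the data. Same-numbered arrays of different groups had deviation correlations of -0.18 to 0.26, so replicate numbers were not taken as pairs.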

Additional observations from a re-analysis of the deposited data

Results flagged for a closer look

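Id1 in Sf1-Cre had 1 array far from the others: replicate 2 measured log2 5.29, against 6.46 to 6.70 in the other 3, a gap of 0.832 of the group's range, above Dixon's critical value of 0.829 for 4 samples. Smad6 in Sf1-Cre was likewise uneven, with replicate 1 at log2 3.67 and the others at 3.26 to 3.32, a gap of 0.843 of the range, though all 4 arrays were under the floor of log2 4. Chance flags about 1 in 20 groups this way.

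The effect against control differed between Sf1-Cre and the arrays labelled Dhh-Cre for 3 genes by limma's direct test. The difference of effects, Sf1-Cre minus Dhh-Cre on the log2 scale, was -1.32 for Bmp7, 1.47 for Bmpr1b and -0.55 for Smad7. Dmrt1 itself was higher than control in the arrays labelled Dhh-Cre, so the direction of these differences rests on that label.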

How the results depend on the processing

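With 2 arrays in each of 2 groups, and 4 of the 8 genes under log2 4 in control, size is bounded from below for several genes and the spread is borrowed across groups. Each gene also rests mostly on 1 probe set. Id3 stayed higher and Smad6 lower against control in both Cre lines, and passed, under all 24 alternatives, and Bmp7 stayed lower and passed in Sf1-Cre under all 22 that tested it. Where a count or a sign moved below, the cause was not tested, except that settings with 1 value per gene or a higher filter test fewer features.

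After housekeeping centring, 3 members were higher and 3 lower in Sf1-Cre against control, and 2 were higher and 2 lower in arrays labelled Dhh-Cre. Of all probe sets, 3354 were then higher and 17633 lower in Sf1-Cre, and 3254 higher and 15727 lower in arrays labelled Dhh-Cre. After peritubular and endothelial centring 1 was higher and 4 lower in Sf1-Cre, and 1 was higher and 5 lower in arrays labelled Dhh-Cre. The probe sets higher and lower were 1921 and 19890 in Sf1-Cre, and 1529 and 18317 in arrays labelled Dhh-Cre. With centring on changes, arrays labelled Dhh-Cre had 4 higher and 2 lower (housekeeping), and 1 higher and 4 lower (peritubular and endothelial). The probe sets higher and lower were 7122 and 10963 in the first of these settings, and 2041 and 16867 in the second.

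Signs turned for Id2 and Smad7. For Sf1-Cre against control after housekeeping, peritubular and endothelial, and peritubular and endothelial centring on changes, Id2 was -0.22, -0.76 and -0.069 (probe set 1435176_a_at) and -0.75, -1.29 and -0.61 (1422537_a_at). Smad7 was -0.75, -1.29 and -0.60 (1443771_x_at) and -0.78, -1.32 and -0.63 (1423389_at). For arrays labelled Dhh-Cre against control in the same order, Id2 was -0.62, -1.17 and -0.94 (1435176_a_at) and -1.19, -1.74 and -1.51 (1422537_a_at, also -0.36 after housekeeping centring on changes). Smad7 was -0.19, -0.74 and -0.51 (1443771_x_at) and -0.26, -0.81 and -0.58 (1423389_at), and Bmpr1b was -0.78, -1.33 and -1.10.

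Between the Cre lines, members lower numbered 1 after housekeeping centring, 1 after housekeeping centring on changes and 1 after peritubular and endothelial centring, with 3336 probe sets called in the last against 5508 as deposited. After peritubular and endothelial centring on changes 2 were higher and 0 lower, where 4789 probe sets were higher and 848 lower. With a filter at log2 6, 0 were higher and 1 lower between the lines, and 1 was lower in Sf1-Cre against control. With only the groups compared, 1 was lower. At an adjusted p under 0.01, 0 were higher and 0 lower, with 2087 probe sets called. With a gene's probe sets averaged, 0 were higher and 0 lower between the lines and 1 lower in Sf1-Cre against control, and 10366, 10402 and 3357 genes were called in Sf1-Cre against control, arrays labelled Dhh-Cre against control and between the lines. With 1 probe set per gene these were 11020, 10987 and 3402, against 19992, 20088 and 5508 probe sets in the fit reported.

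With the replicate number as a block, 0 members were higher and 0 lower between the lines, where 1 and 2 passed without it, and 4557 probe sets were called. Against control the block changed no member count, with 6 higher and 2 lower in Sf1-Cre and 5 higher and 1 lower in arrays labelled Dhh-Cre. Samples share only a number here, so a call lost under the block is not read as a weaker effect.

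Leaving out each array in turn gave 6 members higher and 2 lower in Sf1-Cre against control each time, with 17442 to 20259 probe sets called. Arrays labelled Dhh-Cre against control had 5 to 6 higher and 1 to 2 lower, with 18096 to 20343 probe sets called. Between the lines 1 to 2 were higher and 0 to 2 lower, with 1859 to 6003 probe sets called, the lowest without replicate 1 labelled Dhh-Cre. Bmp7 ranged from -0.70 without replicate 1 labelled Dhh-Cre to 0.49 without replicate 2 in arrays labelled Dhh-Cre against control. Between the lines, where none of these had passed, Id2 ranged from -0.0026 to 0.82 (1435176_a_at) and from -0.0505 to 0.93 (1422537_a_at), Bmp4 from -0.12 to 0.28 and Id3 from -0.015 to 0.29. A group of 1 array is then assumed to vary like the others.

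Without the 3 arrays with high Spink8, a setting chosen after seeing the data, 2 members were lower in arrays labelled Dhh-Cre against control. Between the lines 0 were lower, 1146 probe sets were called, and Id2 turned to -0.093 (1435176_a_at) and -0.26 (1422537_a_at) and Smad6 to -0.064.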
